A study of Mus musculus with 30 samples.

Results

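Binding sites of KLF5 and of RXR in 3T3-L1 cells were compared interval by interval. A site is a 400 bp genomic interval in a factor's deposited list, and an interval with identical coordinates in both lists counted as listed for both factors. The KLF5 list held 17120 sites on chromosomes 1 to 19 and X, and the RXR list held 12082. Both factors were listed at 8425 intervals, KLF5 without RXR at 8695 and RXR without KLF5 at 3657. These 20777 intervals are part of the 34724 that the 9 deposited lists covered together, and 13947 intervals held neither factor. Shared sites made up 40.5% of the 20777, KLF5 sites without RXR 41.8% and RXR sites without KLF5 17.6%.

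3T3-L1 is a mouse fibroblast line committed to the fat lineage. Chromatin immunoprecipitation with sequencing (ChIP-seq), which maps where a protein sits on DNA, was carried out for 9 transcription factors with 1 library each. All cultures had passed confluence and were harvested 4 h after the addition of 1 μg/ml insulin, 1 μM dexamethasone, 0.5 mM isobutylmethylxanthine (IBMX) and 10% FCS (serum). The labels name no ligand of VDR or RXR among these additions. The KLF5 antibody was a gift and the RXR antibody a commercial one, for which the labels name no receptor subtype.

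KLF5 is a zinc-finger protein of the Krüppel-like family, which binds GC-rich DNA and is known to promote early fat cell differentiation. KLF4, another member of the family, binds similar DNA and also acts early in this process. RXR, the retinoid X receptor, is a nuclear receptor that pairs with other nuclear receptors, among them the vitamin D receptor VDR and, later in adipogenesis, PPARγ. The other 5 factors belong to the bZIP class, which binds DNA as dimers. JunB, cJun and FOSL2 form part of AP-1, and ATF2 and ATF7 are a closely related pair that can dimerise with each other and with Jun proteins.

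The files gave coordinates without score or read number, so library depth is unknown. With 1 library per factor there was no test between cultures. Shares carry exact Clopper-Pearson 95% intervals and differences of shares Newcombe 95% intervals, both of which cover counting error only. How far a value held across the genome was read from 20 chromosomes taken separately. List length reflects depth, antibody and peak threshold as well as binding, and their part in the sharing was not tested. An interval missing from a list was not called there, which does not show that the factor was absent.

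Of the RXR sites, 69.7% (95% interval 68.9 to 70.6) were also KLF5 sites, where 49.3% of all 34724 intervals were listed for KLF5. Of the KLF5 sites, 49.2% (48.46 to 49.96) were also RXR sites, where 34.8% of all intervals were listed for RXR. The first share ran from 56.5% on chromosome X to 76.3% on chromosome 19, and the second from 38.2% on chromosome 7 to 54.2% on chromosome 16. On each of the 20 chromosomes RXR sites held KLF5 more often than KLF5 sites held RXR, as the longer KLF5 list requires. Intervals that overlapped without being identical added little: 117 KLF5 sites without RXR (1.35%) and 55 RXR sites without KLF5 (1.50%) overlapped an interval of the other list.

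Shared sites held more of the other 7 factors than sites of either factor alone. The largest differences were in VDR, JunB and KLF4 against KLF5 without RXR, and in KLF4, VDR and JunB against RXR without KLF5. VDR was listed at 76.8% (75.9 to 77.7) of shared sites, at 39.5% (38.0 to 41.1) of RXR sites without KLF5 and at 16.3% (15.5 to 17.1) of KLF5 sites without RXR, where 34% of all intervals held VDR. Thus most shared sites held VDR, although most sites with RXR alone of this pair did not. The shared class exceeded RXR without KLF5 by 37.2 points (35.4 to 39.0) and KLF5 without RXR by 60.5 points (59.3 to 61.7), on 20 of 20 chromosomes each.

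KLF4, the relative of KLF5, was listed at 47.0% (45.9 to 48.0) of shared sites, 12.9% (12.2 to 13.6) of KLF5 sites without RXR and 5.88% (5.14 to 6.69) of RXR sites without KLF5. Over all intervals it was listed at 16.9%. KLF5 sites that lacked RXR therefore held KLF4 less often than the average interval, an average that includes the shared sites. They held KLF4 more often than intervals with neither factor, where it was listed at 4.18%. That difference was 8.71 points (7.94 to 9.50), above 0 on 20 of 20 chromosomes. The shared class exceeded KLF5 without RXR by 34.1 points (32.8 to 35.3) and RXR without KLF5 by 41.1 points (39.7 to 42.4), again on 20 of 20 chromosomes. Among intervals in the later 50% of the row order, an ordering described further on, these differences were 5.33 and 10.8 points.

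JunB was listed at 52.6% (51.5 to 53.7) of shared sites, 16.9% (16.1 to 17.7) of KLF5 sites without RXR and 24.8% (23.4 to 26.2) of RXR sites without KLF5, against 29% of all intervals. For cJun the shares were 39.5% (38.5 to 40.6), 8.59% (8.01 to 9.20) and 15.9% (14.8 to 17.2), against 17.8%. For FOSL2 they were 25.3% (24.4 to 26.3), 11.8% (11.1 to 12.5) and 7.71% (6.87 to 8.62), against 18.1%. Of the 3 classes these AP-1 subunits were thus most frequent where KLF5 and RXR met, and the Jun proteins came next at RXR sites without KLF5. At intervals with neither factor JunB was listed at 23.5%, cJun at 10.9% and FOSL2 at 20.4%. RXR sites without KLF5 differed from these intervals by 1.34 points for JunB (-0.204 to 2.93), above 0 on 12 of 20 chromosomes. For cJun the difference was 5.07 points (3.80 to 6.39), above 0 on 19 of 20.

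ATF2 and ATF7 had the order of FOSL2, not that of JunB and cJun. ATF2 was listed at 35.3% (34.3 to 36.4) of shared sites, 24.2% (23.3 to 25.1) of KLF5 sites without RXR and 12.7% (11.7 to 13.8) of RXR sites without KLF5, against 33.3% of all intervals. ATF7 was listed at 25.7% (24.8 to 26.7), 14.7% (13.9 to 15.4) and 8.12% (7.26 to 9.05), against 21.2%. For both proteins shared sites lay a little above the average over all intervals, and sites with KLF5 or RXR alone of this pair lay below it. At intervals with neither KLF5 nor RXR the share was 43.1% for ATF2 and 26.1% for ATF7; such intervals hold at least 1 of the other factors by construction.

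**Figure D1:**
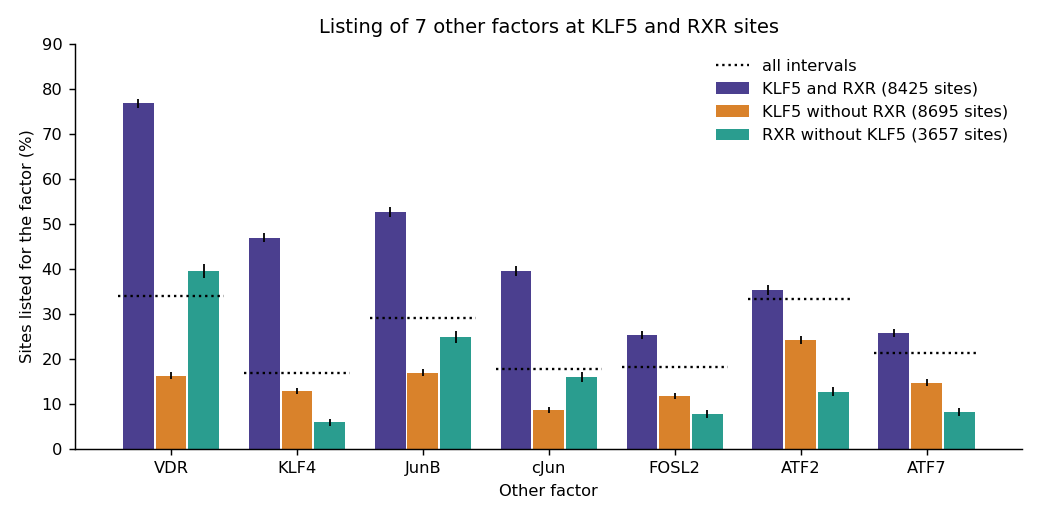
Bars give the percentage of sites listed for each of 7 other factors (y axis) in the shared class, KLF5 without RXR and RXR without KLF5; error bars are exact 95% intervals, and dotted lines mark the share over all 34724 intervals. For each factor the shared class stands highest, and the order of the remaining classes is reversed between VDR, JunB and cJun on one side and KLF4, FOSL2, ATF2 and ATF7 on the other.

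The KLF5 sites and the RXR sites outside the shared class differed in kind of bZIP factor. Any of the 5 bZIP factors was listed at 41.3% (40.3 to 42.4) of KLF5 sites without RXR and 38.3% (36.8 to 39.9) of RXR sites without KLF5, against 66.2% of all intervals. That difference was 2.99 points (1.09 to 4.86) and was above 0 on 15 of 20 chromosomes. It was 8.68 points among intervals in the earlier 50% of the row order and -0.0174 points (-2.49 to 2.41) in the later 50%. It was 11.4 points within 10 equal parts of that order and 12.1 points at equal numbers of the remaining other factors. Both of these values weight each part or number by the shared sites in it. The size of the difference thus depended on what was held equal.

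Sites were then divided by kind. cJun or JunB without ATF2 and ATF7 was found at 11.3% (981 sites) of KLF5 sites without RXR and 21.9% (800 sites) of RXR sites without KLF5, against 21.2% of all intervals. ATF2 or ATF7 without cJun and JunB was found at 21.0% (1828 sites) and 8.64% (316 sites), against 29.1% of all intervals. RXR sites without KLF5 were thus near the average for the Jun kind and KLF5 sites without RXR below it. Both classes lay below the average for the ATF kind. The order was opposite for the 2 kinds, and each order held on 20 of 20 chromosomes. At intervals with neither KLF5 nor RXR the ATF kind held 49.2%. Factors of both kinds stood together at 7.15% and 7.03% of these sites and at 27.3% of shared sites, against 11.4% of all intervals. In the shared class Jun proteins without the ATF pair held 30.5% and the ATF pair without Jun proteins 13.0%.

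Single factors showed the same contrast. KLF5 sites without RXR exceeded RXR sites without KLF5 by 11.4 points for ATF2 (10.0 to 12.8) and by 7.01 points for KLF4 (5.95 to 8.03), each on 20 of 20 chromosomes. The difference was -7.87 points for JunB (-9.49 to -6.28) and -7.35 points for cJun (-8.70 to -6.05), each below 0 on 20 of 20 chromosomes. FOSL2 went with the ATF pair, at 4.09 points (2.96 to 5.16), above 0 on 18 of 20 chromosomes.

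Shared sites also held other factors in greater number. Shared sites held a mean of 3.02 ± 1.93 of the other 7 factors (SD over sites), KLF5 sites without RXR 1.05 ± 1.33 and RXR sites without KLF5 1.15 ± 1.29. None of the 7 was listed at 7.47%, 47.2% and 38.3% of the sites, against 17.7% of all intervals. Intervals with neither KLF5 nor RXR hold at least 1 of the 7 by construction. All 6133 intervals with none therefore lay among the 20777 KLF5 or RXR sites, which lowers the average over all intervals. At 38.6%, 6.36% and 5.96% there were 4 or more, against 12.8% of all intervals. Sites are not replicates, and these SDs describe the spread among sites of the same libraries. The shared class exceeded the others by 1.97 (1.92 to 2.02) and 1.87 (1.82 to 1.93) factors, on 20 of 20 chromosomes.

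Read the other way, 10.3% (9.51 to 11.04) of KLF5 or RXR sites with none of the other 7 factors were listed for both. The share was 32.1% with 1 of the 7, 60.5% with 3, 86.2% with 6 and 96.7% (94.8 to 98.1) with all 7. RXR sites held KLF5 at 31.0% with none of the 7 and at 99.2% with all 7. KLF5 sites held RXR at 13.3% and 97.5%.

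The shared fraction also differed by which factor was present. Where VDR was the only other factor, 46.1% (44.1 to 48.1) of 2390 sites were shared. The share was 24.2% (17.6 to 31.8) of 153 sites with cJun alone, 23.4% (19.8 to 27.4) of 499 with KLF4 alone and 21.6% (18.3 to 25.1) of 603 with JunB alone. It was 15.7% (13.3 to 18.4) of 802 with ATF2, 13.8% (9.79 to 18.6) of 254 with ATF7 and 8.00% (4.20 to 13.6) of 150 with FOSL2 alone. VDR stood apart from the other 6, and the intervals of cJun, KLF4 and JunB overlapped one another.

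KLF4 alone was asymmetric. Of 146 RXR sites with KLF4 as the only other factor, 80.1% (72.7 to 86.3) were KLF5 sites, whereas of 470 KLF5 sites with KLF4 alone 24.9% (21.0 to 29.1) were RXR sites. With VDR alone the corresponding shares were 59.6% (57.4 to 61.9) of 1848 RXR sites and 67.0% (64.7 to 69.3) of 1644 KLF5 sites. Each of KLF5 and RXR was thus listed more often beside its own relative or partner than beside that of the other. With ATF2 alone 56.8% of RXR sites held KLF5 and 17.8% of KLF5 sites held RXR. These shares were 44.3% and 16.7% with ATF7 alone, 38.7% and 9.16% with FOSL2 alone, and 31.0% and 13.3% with none. They were 40.9% and 31.3% with JunB alone, and 36.6% and 41.6% with cJun alone. The KLF5 list is the longer, and its part in the asymmetry was not tested.

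With VDR present, 69.3% (68.4 to 70.3) of 9328 KLF5 or RXR sites were shared, and without VDR 17.1% (16.4 to 17.8) of 11449. KLF5 sites held RXR at 82.1% with VDR and 21.2% without. RXR sites held KLF5 at 81.7% and 47.0%. At each number of the remaining 6 factors the share was higher with VDR: 46.1% against 10.3% with none of them, 72.8% against 24.3% with 2 and 96.7% against 52.5% (39.3 to 65.4) with all 6.

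**Figure D2:**
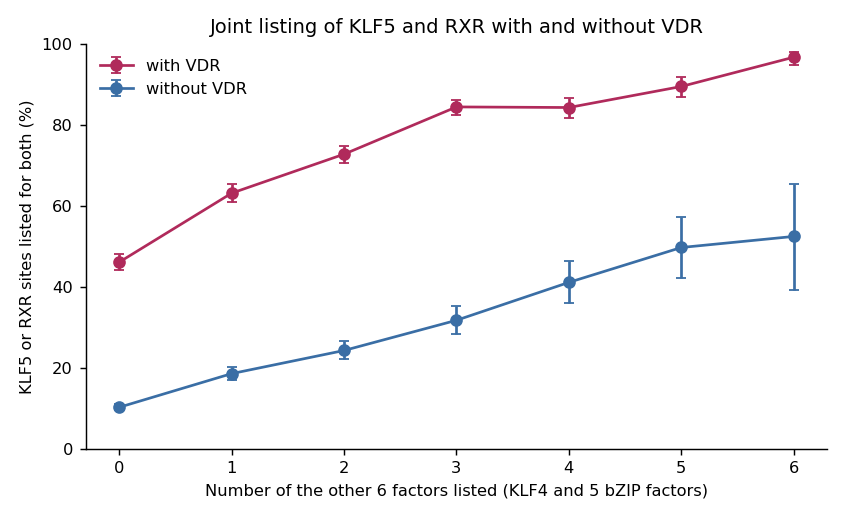
The percentage of KLF5 or RXR sites listed for both (y axis) is plotted against the number of KLF4 and the 5 bZIP factors listed at the site (x axis), with VDR and without it; error bars are exact 95% intervals. The line with VDR runs from 46.1% to 96.7% and lies above the line without VDR, which runs from 10.3% to 52.5%, at each number.

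Joint listing of KLF5 and RXR was also present without VDR. Among intervals with 1 to 6 of the remaining 6 factors, the odds ratio of KLF5 and RXR, pooled over equal numbers of those factors by the Mantel-Haenszel method, was 4.84 (4.38 to 5.35) at 16797 intervals without VDR. It was 5.48 (4.83 to 6.22) at 7765 intervals with VDR. Both were above 1 on 20 of 20 chromosomes, with 2.98 to 6.71 without VDR and 3.62 to 11.5 with it. The difference between them was not tested. An odds ratio above 1 means that an interval listed for one factor was more often listed for the other at the same number of remaining factors. By number, the value with VDR was 4.08 (3.36 to 4.95) with 1 remaining factor and 8.66 (6.03 to 12.5) with 3, and without VDR 5.25 (4.54 to 6.06) and 4.29 (3.24 to 5.71). Pooled also over deciles (10 equal parts) of that row order, the value with VDR was 3.44 and the value without VDR 4.33, so that which of them was higher changed with the pooling.

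The other factors at shared sites differed with VDR to unequal degrees. Of the 6468 shared sites with VDR, 54.0% (52.7 to 55.2) held KLF4, and of the 1957 without VDR 23.8% (21.9 to 25.7). JunB was listed at 57.1% and 37.6%, and cJun at 44.9% (43.7 to 46.1) and 21.6% (19.8 to 23.5). ATF2 was listed at 35.5% (34.3 to 36.6) and 34.8% (32.7 to 37.0), whose intervals overlap. ATF7 had 27.2% and 20.7%, and FOSL2 26.6% and 21.1%.

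The contrast between KLF5 sites and RXR sites outside the shared class was also read with and without VDR. With VDR, JunB was listed at 29.4% of both classes (difference 0.0287 points, -3.31 to 3.37), and cJun at 18.5% of KLF5 sites and 21.0% of RXR sites (difference -2.50, -5.41 to 0.422). Without VDR, JunB was listed at 14.5% and 21.8% and cJun at 6.67% and 12.7%, with differences of -7.30 (-9.23 to -5.43) and -5.99 (-7.54 to -4.54) points. For cJun and JunB taken singly the difference with VDR lay within counting error. For cJun or JunB without ATF2 and ATF7 it did not: the shares with VDR were 21.1% (19.04 to 23.4) and 26.003% (23.8 to 28.3), a difference of -4.86 points (-7.95 to -1.75), and the difference without VDR was -9.81 points (-11.6 to -8.08). The ATF2 contrast stood in both: 27.9% against 13.0% with VDR and 23.4% against 12.5% without. KLF4 had 21.4% against 10.4% with VDR and 11.2% against 2.89% without. The intervals of the differences with and without VDR overlap for cJun but not for JunB. The change of these differences with VDR was not tested.

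Exact combinations of the other 7 factors were counted next. The commonest in the shared class was VDR alone, at 1102 sites (13.1%), which is near its share of 11.6% over all intervals. Of the 4029 intervals with VDR alone, 1639 held neither KLF5 nor RXR. Next in the shared class came cJun, JunB, KLF4 and VDR together at 681 sites (8.08%), against 2.1% of all intervals. None of the 7 followed at 629 sites (7.47%). The combination of 4 factors was seen at 17 KLF5 sites without RXR and 20 RXR sites without KLF5. All 7 factors were listed at 504 shared sites, 13 KLF5 sites without RXR and 4 RXR sites without KLF5, and at 1.51% of all intervals. Of the 128 possible combinations, 119 occurred in the shared class.

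Among KLF5 sites without RXR, 4103 (47.2%) held none of the 7, 580 (6.67%) held ATF2 alone and 542 (6.23%) VDR alone. Over all intervals ATF2 alone held 11.7%, and both of these single-factor combinations were below their share over all intervals. That share is raised by intervals with neither KLF5 nor RXR, which hold at least 1 of the 7 by construction. They made up 3249 of the 4051 intervals with ATF2 alone and 1639 of the 4029 with VDR alone. ATF2 with ATF7 and nothing else was listed at 381 of them (4.38%), at 55 shared sites and at 38 RXR sites without KLF5, but also at 1317 intervals with neither factor and at 5.16% of all intervals. Among RXR sites without KLF5, 1401 (38.3%) held none, 746 (20.4%) VDR alone and 188 (5.14%) JunB alone. JunB alone held 5.76% of all intervals, and 1398 of these 2001 intervals held neither KLF5 nor RXR. The pair of ATF2 and ATF7 and the combination of all 7 factors are not among the 3 commonest of a class and were picked out after their counts were seen.

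Each list comes in a fixed order of rows, and any 2 lists (36 of 36 pairs) hold their shared intervals in the same order. The sources used here do not say what sets it, and the lists hold no score to read it from. Place is given as the percentage of the list's rows above a site, so a low place is near the top. In the KLF5 list the median place was 31.6% (30.9 to 32.3) for shared sites and 69.2% (68.4 to 70.1) for sites without RXR. In the RXR list it was 38.8% (38.0 to 39.7) for shared sites and 75% (74.1 to 76.0) for sites without KLF5. The differences of -37.7 points (-38.7 to -36.6) and -36.2 points (-37.5 to -34.9) were below 0 on 20 of 20 chromosomes.

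By deciles of the KLF5 list, the share also listed for RXR was 82.5% (80.7 to 84.3) in the first decile, 56.0% in the fifth and 7.30% (6.11 to 8.64) in the last. By deciles of the RXR list, the share also listed for KLF5 was 95.2% (93.8 to 96.3), 77.3% and 26.2% (23.7 to 28.7). Where no other factor was listed, shared sites lay in the later part of the lists but still before unshared ones: the median place in the KLF5 list was then 65.0% for 629 shared sites and 79.6% for 4103 sites without RXR, and in the RXR list 75.2% and 84.3%.

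**Figure D3:**
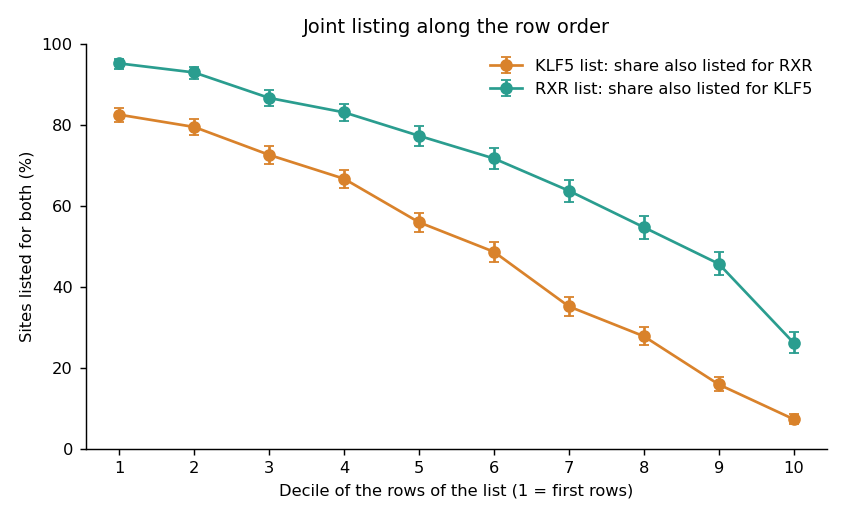
The percentage of KLF5 sites also listed for RXR and of RXR sites also listed for KLF5 (y axis) is plotted by decile of the rows of each list (x axis, 1 being the first rows); error bars are exact 95% intervals. The KLF5 list goes from 82.5% to 7.30% and the RXR list from 95.2% to 26.2%, without a rise between neighbouring deciles.

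The other lists gave a similar picture, although they shared the row order and were not independent of it. In the VDR list the median place was 32.9% for shared sites, 64.7% for KLF5 sites without RXR, 66.4% for RXR sites without KLF5 and 79.7% for sites with neither. In the KLF4 list these values were 36.7%, 77.0%, 69.4% and 86.8%. In the ATF2 list they were 22.8%, 50.5%, 50.8% and 65.2%. Shared sites came first in each of the 7 lists and sites with neither factor last.

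At the top of the KLF5 list the sites without RXR held few Jun proteins. Among the 299 such sites in the first decile, ATF2 was listed at 58.5% (52.7 to 64.2) and ATF7 at 48.2% (42.4 to 54.0), whereas cJun was listed at 3.34% (1.62 to 6.06) and JunB at 5.69% (3.35 to 8.95). The 1413 shared sites of the same decile held ATF2 at 49.3% (46.6 to 51.9), ATF7 at 40.8%, cJun at 59.8% (57.2 to 62.4) and JunB at 73.0% (70.6 to 75.3). KLF4 was listed at 14.7% (10.9 to 19.2) against 80.7% (78.5 to 82.7), and VDR at 21.1% (16.6 to 26.1) against 94.3% (92.9 to 95.4). Of the 299 sites, 76 held ATF2 and ATF7 alone and 72 held none of the 7. Of the 1413 shared sites, 3 and 20 did. Over all intervals ATF2 was listed at 33.3%, ATF7 at 21.2%, cJun at 17.8%, JunB at 29%, KLF4 at 16.9% and VDR at 34%. ATF2 and ATF7 alone held 5.16% of all intervals and none of the 7 held 17.7%.

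Chromosome 10 held 28 of the first 100 rows of the KLF5 list and 24 of the first 100 of the RXR list, against 5.47% and 6.04% of the whole lists. Without chromosome 10 the values for the first decile moved little: ATF2 was listed at 59.2% and cJun at 3.31% of the remaining 272 KLF5 sites without RXR. Only 58 RXR sites without KLF5 lay in the first decile of the RXR list. VDR was listed at 48.3% (35.0 to 61.8) of them, ATF2 at 22.4% (12.5 to 35.3) and JunB at 17.2% (8.59 to 29.4).

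**Figure D4:**
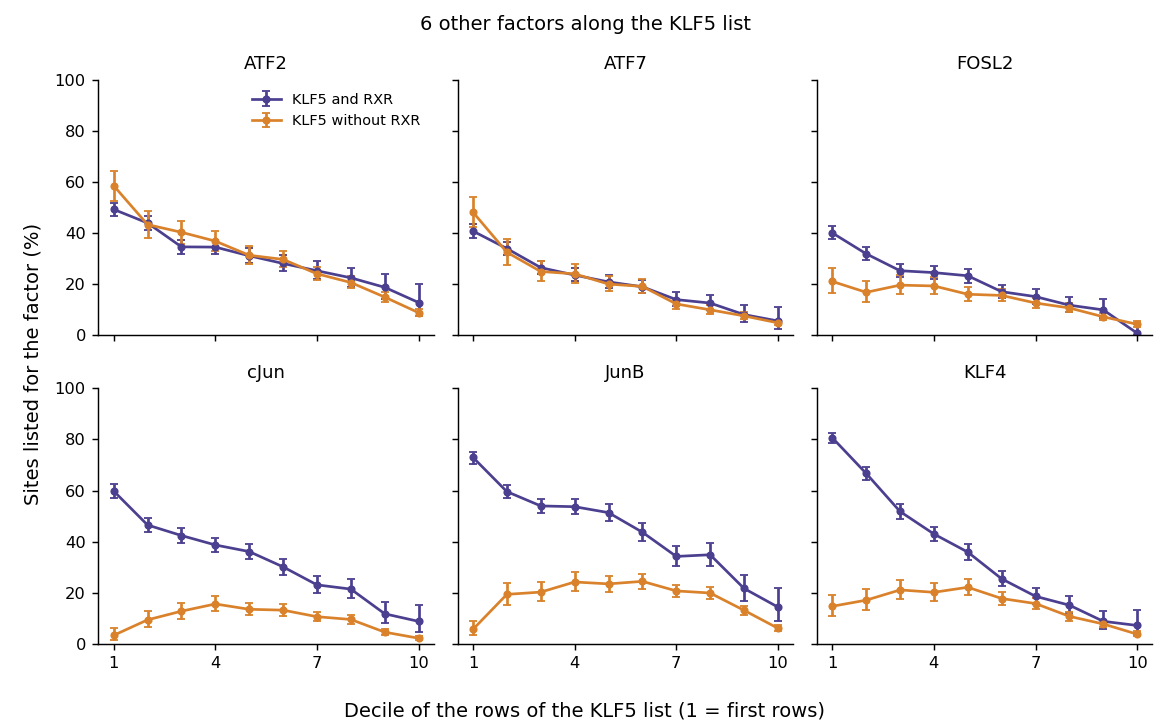
Each panel plots the percentage of KLF5 sites listed for 1 of 6 other factors (y axis) by decile of the rows of the KLF5 list (x axis), for sites shared with RXR and sites without RXR; error bars are exact 95% intervals. In the first decile cJun is listed at 59.8% of shared sites and 3.34% of sites without RXR, whereas ATF2 is listed at 49.3% and 58.5%, and the ATF2 and ATF7 lines of the classes cross along the list.

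At equal place the ATF pair had no difference of 1 sign between shared sites and KLF5 sites without RXR. Compared within deciles of a row order common to all lists, the difference was -2.19 points for ATF2 and -0.147 points for ATF7, where it was 11.2 and 11.05 points without regard to place. These are means over deciles weighted by the shared sites in each, from 2158 in the first decile to 52 in the last. The differences in single deciles went both ways, above 0 in 5 of 10 for ATF2 and in 7 of 10 for ATF7. The other mean differences between these classes kept their sign, at 29.1 points for cJun, 34.1 for JunB, 29.6 for KLF4, 54.1 for VDR and 8.58 for FOSL2. Single deciles were above 0 in 10 of 10 for cJun, JunB, KLF4 and VDR, but in 8 of 10 for FOSL2. Between KLF5 sites without RXR and RXR sites without KLF5 the ATF2 difference was 20.4 points and the cJun difference -6.91 points at equal place. The weights were the same, although the first decile held 129 RXR sites without KLF5. This comparison by place was chosen after the row order had been seen to run with the number of listed factors.

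Shared sites lay closer to other sites. The nearest other interval of any list was at a median of 4.31 kb (4.11 to 4.48) from shared sites, measured between midpoints. It was 5.65 kb (5.39 to 5.97) for KLF5 sites without RXR, 7.30 kb (6.74 to 7.81) for RXR sites without KLF5 and 7.42 kb for intervals with neither. Another interval lay within 10 kb of 68.9% (67.9 to 69.9), 61.9% (60.8 to 62.9) and 57.2% (55.5 to 58.8) of the 3 classes, against 60.6% of all intervals. Shared sites exceeded KLF5 sites without RXR by 7.02 points (5.59 to 8.43), on 19 of 20 chromosomes. They exceeded RXR sites without KLF5 by 11.7 points (9.85 to 13.6), on 20 of 20.

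Among sites with none of the other 7 factors, another interval lay within 10 kb of 69.0% (65.2 to 72.6), 61.6% (60.1 to 63.1) and 57.0% (54.3 to 59.6) of the 3 classes, in the same order as over all sites. Within 1 kb of such sites the shares were 19.2% (16.2 to 22.5), 19.5% (18.3 to 20.8) and 15.8% (13.9 to 17.8), so shared sites did not stand first at this distance. Within 1 kb the shares over all sites were 21.5%, 19.7% and 14.7%, and within 100 kb they were 98.1%, 96.5% and 95.9%. The classes were thus further apart at 10 kb than at 1 kb or 100 kb. Such cumulative shares draw together at short and at long distances in any case, so no distance particular to the sites can be read from this.

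**Figure D5:**
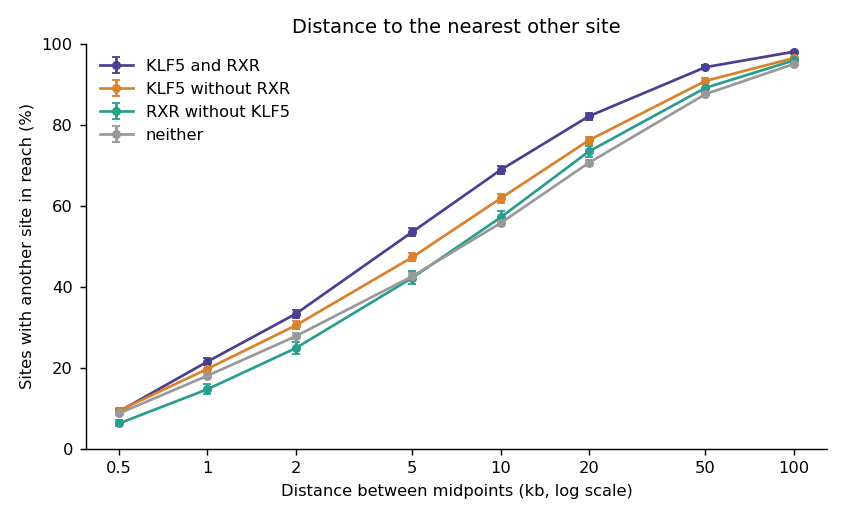
The percentage of sites with another interval in reach (y axis) is plotted against the distance between midpoints in kb (x axis, log scale) for the 3 classes and for intervals with neither factor; error bars are exact 95% intervals. At 10 kb shared sites stand at 68.9%, KLF5 sites without RXR at 61.9%, RXR sites without KLF5 at 57.2% and intervals with neither at 55.8%.

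The class of the nearest neighbour differed between the classes. Where the nearest interval lay within 10 kb, it was a shared site for 37.8% of shared sites, 27.2% of KLF5 sites without RXR and 34.2% of RXR sites without KLF5. It was a KLF5 site without RXR for 33.1% of KLF5 sites without RXR, against 24.7% of shared sites. RXR sites without KLF5 had another of their own class as the nearest in 14.5% of cases, so that shared sites were their more frequent neighbours. Their class is also the smallest, and these shares were not set against class size.

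Intervals of the other factor also lay near sites that lacked it. Another interval listed for RXR lay within 10 kb of 30.9% (30.0 to 31.9) of KLF5 sites without RXR and 45.5% (44.4 to 46.6) of shared sites. For RXR this share was 24.7% of intervals with neither and 32.5% of all intervals. Another interval listed for KLF5 lay within 10 kb of 39.0% (37.4 to 40.6) of RXR sites without KLF5, 52.8% (51.7 to 53.9) of shared sites, 33.6% of intervals with neither and 41.8% of all intervals. Sites with one of the factors thus lay slightly below the average over all intervals in this respect, and shared sites above it.

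Sites of 1 class were joined into chains where successive midpoints were at most 10 kb apart. Chains of 2 or more numbered 1326 for shared sites, 1128 for KLF5 sites without RXR and 239 for RXR sites without KLF5, and held 37.8%, 29.9% and 13.5% of the sites. The longest held 14, 9 and 4 sites. Most sites of each class thus had no other site of their class within 10 kb. RXR without KLF5 is the smallest class, and the part of class size in these shares was not tested.

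The longest chain of shared sites lay at chr10:107337045-107389723 (mm9), where 14 shared sites, 12 of them with VDR and 8 with KLF4, stood among 30 intervals. The next, at chr10:116630382-116648471, had 11 shared sites among 12 intervals, 10 of them with VDR. Both lie on chromosome 10, which also held many of the first rows; the longest chain of shared sites elsewhere had 9 sites, and the part of this chromosome in the chains was not tested. The longest chain of KLF5 sites without RXR, at chr19:9055256-9073427, had 9 sites among 12 intervals, 2 of them with VDR. At chr15:76020186-76034924 all 7 intervals were KLF5 sites without RXR; none held VDR and 3 held KLF4. The longest chain of RXR sites without KLF5 had 4 sites at chr17:32161646-32177127, none with VDR or KLF4. The first by position of 13 chains of 3 such sites lay at chr1:14345557-14348153, 1 site of it with VDR.

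Single sites with a common combination show the classes at their plainest. The first shared sites by position with VDR as the only other factor were chr1:5118204-5118603 and chr1:5124115-5124514. The first KLF5 sites with no other factor were chr1:4887337-4887736 and chr1:9937640-9938039, and the first RXR sites with no other factor chr1:14345557-14345956 and chr1:23127873-23128272. Genes at these positions were not analysed here.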

How the data were processed

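The authors deposited 1 list of intervals per factor with chromosome, start and end as its 3 columns, per the files themselves; these coordinates are the only measurement, and no score or count comes with them. HOMER, Bowtie, FastQC and the mouse build mm9 are named per the submitters' processing notes; the sources used here give no role, version or peak threshold. Of 30 samples 21 were not analysed here. Of 34726 intervals, 2 on chromosome Y were left out. Coordinates are 1-based. Depth is unknown, and 1 library per factor allows no test.

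Sharing meant identical coordinates. The common row order placed each interval midway between the lowest and highest place that the lists allow. Named regions are the 2 longest chains per class and the first 2 sites with the commonest combination; named combinations are the 3 commonest per class and 2 chosen after their counts were seen. The members and lists were chosen with earlier results of these data known. Alternatives were sharing by overlap of 1 bp, the earlier and later 50% and the deciles of the row order, VDR not counted, other strata, other windows and each of 20 chromosomes left out. The calculations were tested on simulated data. Python 3.11.15, numpy 2.4.6, pandas 2.3.3, scipy 1.17.1 and networkx 3.6.1 were used.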

Additional observations from a re-analysis of the deposited data

How the results depend on the processing

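Of 371 alternative values for 15 results, 300 left out 1 chromosome each, and all 300 stayed within the 95% interval of the reported value. Sharing by an overlap of 1 bp moved the share of KLF5 sites with RXR to 50.1%. In the earlier 50% of the common row order, the shares were 80.6% of RXR sites with KLF5 and 66.3% of KLF5 sites with RXR, and in the later 50% they were 40.6% and 20.8%. For the earlier and later rows, the shared class exceeded KLF5 without RXR by 1.78 and 0.810 other factors, and by 58.7 and 34.9 points for VDR. In the later rows it exceeded that class by 5.33 points for KLF4. It exceeded RXR without KLF5 by 1.81 and 0.685 factors, 44.2 and 10.8 points for KLF4 and 31.2 and 16.6 points for VDR. The bZIP difference of KLF5 sites without RXR minus RXR sites without KLF5 was 8.68 points in the earlier rows. In the later rows it was -0.0174 points (-2.49 to 2.41), an interval that covers both signs. Differences in place were -15.2 and -9.22 points against KLF5 sites without RXR and -20.1 and -5.32 against RXR sites without KLF5. The odds ratio was 2.38 with VDR in the later rows, and 5.997 and 3.28 without VDR.

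The comparison within deciles of the row order was chosen after the data were seen. In it the excess in other factors was 1.53 over KLF5 sites without RXR and 1.58 over RXR sites without KLF5. That for KLF4 was 29.6 and 36.4 points, that for VDR 54.1 and 27.8 points, and the bZIP difference 11.4 points. At equal numbers of the remaining factors these were 25.6 and 37.0 for KLF4, 54.2 and 30.6 for VDR, and 12.1 for bZIP. The differences within deciles and at equal numbers were weighted by the shared sites in each. With VDR not counted, the excess was 1.36 and 1.50 factors. Odds ratios with and without VDR were 7.27 and 5.92 unstratified, 4.34 and 4.28 by exact combination, and 3.44 and 4.33 by number and decile. The differences in neighbours were 1.80 and 6.83 points at 1 kb and 1.56 and 2.15 at 100 kb. With neighbours listed for KLF5 or RXR the first was 9.33. No paired analysis was possible because each factor had 1 library. Splitting the row order also changes which intervals are compared, and why values moved was not tested.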
